A study of Homo sapiens with 15 samples.

Results

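The genes described here are 37 genes of the lysosome and of its transcriptional control, measured in MDA-MB-231 cells. They hold the transcription factors MITF and TFEB, 3 proteins of lysosomal cholesterol handling (NPC1, NPC2 and LIPA), 5 membrane and acidification proteins, 9 cathepsins and other peptidases, 10 glycosidases, 4 sulfatases and 4 enzymes or activators of sphingolipid and acyl group breakdown. A gene was a member if its name, in the array's gene column or as the current symbol, stood on this list, and the rule used no measured value. All 37 members were found among the 30982 gene names of the array, 2 of them under another name (CTSA as PPGB and CTSL1 as CTSL).

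MDA-MB-231 is a human triple-negative breast cancer cell line, and the study asked which genes change when the transcriptional corepressor CtBP2 is lowered or inhibited. On 5 arrays the cells carried a stable RNA interference against CtBP2 (shCtBP2), made by transfection of a short hairpin clone and puromycin selection. On 5 arrays the cells had received HIPP and on 5 arrays P4, both small-molecule inhibitors of CtBP2 that share a phenylpropanoate backbone and carry an oxime (HIPP) or a hydrazone (P4) at the same carbon, and the cells were collected after 24 h. The labels call the arrays of a treatment 5 biological replicates and name untreated cells as the control of every array, whereas the study's text sets shCtBP2 cells against cells with a scrambled hairpin. RNA of treated cells was always labelled with Cy5 and control RNA with Cy3, so that a dye effect of a gene and its change cannot be told apart. The dose of HIPP and P4 on the arrays is not given in the sources used here, and their values are set side by side without a test between them. The arrays measured RNA of whole cultures, in which a change in all cells and a change in some of them cannot be told apart. The values are log2 ratios of treated over control signal, where 0 means equal signals. A member "passed the test" where limma's p, adjusted by Benjamini-Hochberg over all genes tested in that treatment, was under 0.05, and it was differentially expressed where its change also passed the study's fold threshold of 1.5 for shCtBP2, 2.5 for HIPP or 1.8 for P4.

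Each slide carried up to 4 of the 15 arrays. The first slide had replicates 1 to 4 of P4. Its replicate 5 shared the next slide with replicates 1 to 3 of HIPP, slide 3 had replicates 4 and 5 of HIPP beside replicates 1 and 2 of shCtBP2, and the last slide had the remaining 3 of shCtBP2, so that slide and treatment are partly confounded. By the file headers, the first slide, with replicates 1 to 4 of P4, was scanned on another day than the other slides. Scan day and that slide cannot be told apart. Of the markers set for the cell line, VIM, CD44, AXL and CAV1 exceeded background in both channels of all 15 arrays. Among 5 epithelial and 3 hormone receptor markers, CDH1, KRT5 and PGR did so in neither channel of any array. The other markers of these groups, EPCAM, KRT14, KRT18, ESR1 and ERBB2, are not described here. On the shCtBP2 arrays CTBP2 itself stood at −0.41 ± 0.11 (SD, n = 5), below 0 on 5 of 5, and did not pass the test (limma adjusted p = 0.0648). With HIPP it was higher, at 0.57 ± 0.36 (SD, n = 5, limma adjusted p = 0.00279) and above 0 on 5 of 5 arrays, and with P4 it stood at 0.17 ± 0.35 (SD, n = 5, limma adjusted p = 0.355).

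Lysosomes are acid organelles in which hydrolases break down proteins, glycans and lipids that arrive by endocytosis or autophagy. Most of the hydrolases are tagged with mannose 6-phosphate on their way there, and a proton pump, the V-ATPase, keeps the lumen acid. TFEB and MITF belong to one family of basic helix-loop-helix leucine zipper factors (with TFE3 and TFEC). TFEB is known to bind an extended E-box near the start of many lysosomal genes, often called the CLEAR element, and to be held in the cytoplasm by mTORC1 on the lysosomal surface when nutrients are plentiful. MITF is best known as the master factor of melanocytes, where M-box and E-box motifs lie before its pigment genes.

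Motifs were read in the RefSeq promoter windows of build GRCh38.p14, which run from 250 bases before a gene's start to 50 bases after it. A window was present for 26 of the 37 members (35 windows, since some genes have several starts). The E-box CACGTG, read on both strands, was found for 8 of them (30.8%): LAMP1, CTSA, CTSD, CTSF, GAA, NEU1, ARSB and MCOLN1. Of 27305 genes with a window, 8.77% hold it. The extended form TCACGTG, which contains the E-box, was present for the same number of members against 4.49% of all genes, and the M-box core CATGTG for 5 members (19.2%) against 13.4%. No window of MITF, TFEB, NPC1 or NPC2 holds any of the 3 motifs. The upstream bases of 4 members with an E-box are written 5′ to 3′, with the E-box in capitals. NEU1, ARSB (1 of its starts) and CTSF are the members with the motif that passed the test in more than 1 treatment, and LAMP1 is the member with the most copies, 5 of which lie wholly before its start.
NEU1 (chr6:31862822-31863071, minus strand): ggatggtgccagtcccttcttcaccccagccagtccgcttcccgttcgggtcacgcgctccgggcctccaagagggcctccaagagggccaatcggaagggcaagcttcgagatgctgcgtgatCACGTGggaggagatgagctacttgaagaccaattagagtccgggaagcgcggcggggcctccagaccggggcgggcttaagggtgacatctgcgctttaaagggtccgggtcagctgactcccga
ARSB (chr5:78985959-78986208, minus strand): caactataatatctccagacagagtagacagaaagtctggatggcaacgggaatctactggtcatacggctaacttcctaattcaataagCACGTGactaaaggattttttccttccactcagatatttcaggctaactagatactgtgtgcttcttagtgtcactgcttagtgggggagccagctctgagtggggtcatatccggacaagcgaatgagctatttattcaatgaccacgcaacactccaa
CTSF (chr11:66568607-66568856, minus strand): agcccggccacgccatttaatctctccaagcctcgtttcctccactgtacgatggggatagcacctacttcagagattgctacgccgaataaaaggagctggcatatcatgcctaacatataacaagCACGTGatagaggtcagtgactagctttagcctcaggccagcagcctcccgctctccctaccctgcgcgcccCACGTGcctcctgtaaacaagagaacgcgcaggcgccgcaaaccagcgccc
LAMP1 (chr13:113296989-113297238, plus strand): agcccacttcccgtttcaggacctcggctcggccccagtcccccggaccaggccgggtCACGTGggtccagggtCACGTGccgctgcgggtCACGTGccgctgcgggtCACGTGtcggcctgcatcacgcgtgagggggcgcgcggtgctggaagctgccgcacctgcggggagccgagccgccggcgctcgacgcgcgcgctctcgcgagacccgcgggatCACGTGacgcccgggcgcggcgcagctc
A match is a description of these letters and is not evidence of binding in these cells.

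Members rose and fell side by side under each treatment. With shCtBP2, 1 of 27 tested members passed the test higher (NEU1) and 4 lower (MITF, CTSF, SGSH and ARSB), against 6.24% and 6.58% of all genes tested. These are 18.5% of the tested members, against 12.8% of all genes. With HIPP, 13 of 28 passed higher and 6 lower, against 24.6% and 23.7% of all genes. With P4, 7 of 29 passed higher and 6 lower, against 16.6% and 14.5%. In all, 67.9% of the tested members passed with HIPP and 44.8% with P4, against 48.3% and 31.1% of all genes. Only 2 members were differentially expressed, MITF and CTSF with shCtBP2, where 6.51% of all genes tested were. With HIPP and P4 the number was 0 by limma and by the methods' t-test, against 7.04% and 8.47% of all genes, and every change that passed the test with the inhibitors was smaller than their fold thresholds. At 1 threshold of 1.5-fold for all treatments, 6 members were past it with HIPP (MITF, SCARB2, LAMP2, NEU1, HEXA and ARSB) and 3 with P4 (MITF, CTSZ and PSAP). Of all genes tested, 32.5% were past it with HIPP and 17.5% with P4, larger shares than 6 of 28 and 3 of 29. Of the 37 calls over the 3 treatments, 22 no longer passed with slide as a block and 28 by the methods' t-test, and those kept under every alternative that gave a value, leaving out single arrays included, were ARSB, CTSZ, HEXA, NEU1 and SCARB2, each with HIPP.

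The median log2 ratio over all 37 members was 0.047 with shCtBP2, 0.029 with HIPP and 0.046 with P4. Over all gene names it was 0.023, 0.075 and 0.078. The members spread from −1.60 to 0.56 with shCtBP2, from −0.69 to 0.96 with HIPP and from −0.74 to 0.57 with P4. HIPP replicate 3 stood apart, with a median of 0.29 and 27 of 37 members higher, while the other 14 arrays had medians between −0.12 and 0.16. The filter on variability left out 10 members with shCtBP2, 9 with HIPP and 8 with P4, and these have values but no test. Without that filter, 3 more members passed the test with HIPP (TFEB, TPP1 and SGSH, all lower) and 3 more with P4 (HEXA higher, SGSH and NAGLU lower). Of all genes, 45% then passed with HIPP and 29.6% with P4, against 48.3% and 31.1% with the filter.

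**Figure D1:**
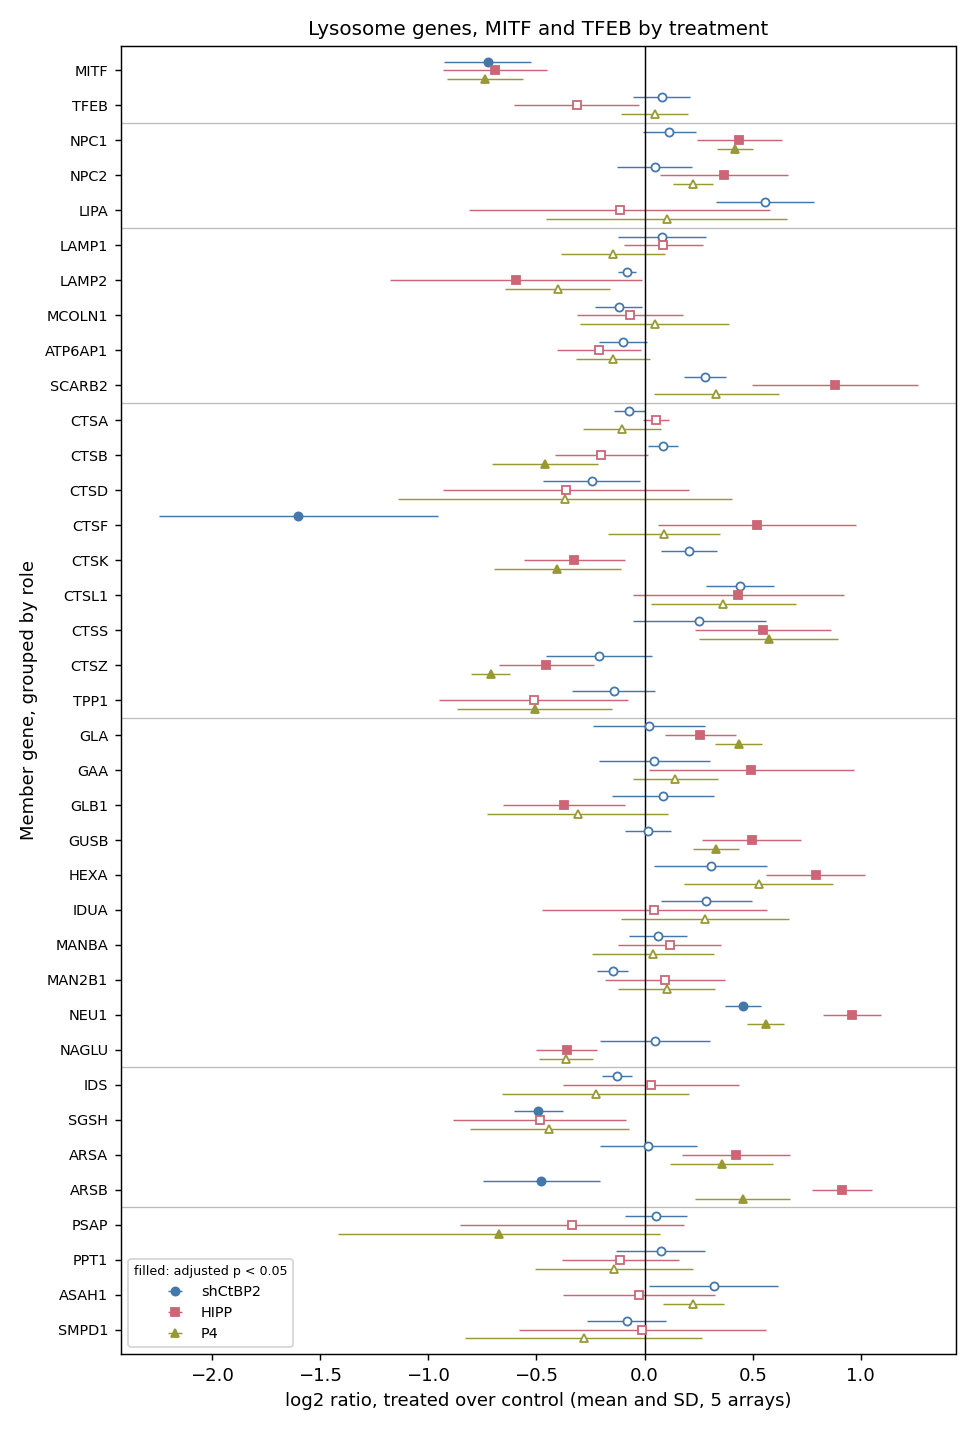
The log2 ratio of treated over control signal (x axis) of each of the 37 members (y axis, grouped by role) is plotted as the mean of 5 arrays with the SD, by treatment. Filled symbols passed the test at an adjusted p under 0.05. MITF lies left of 0 and NEU1 right of 0 in all 3 treatments, and ARSB and CTSF lie left with shCtBP2 and right with HIPP.

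MITF was lower in every treatment, while TFEB did not pass the test in either treatment in which it was tested. MITF is the factor whose loss removes melanocytes, and it is also expressed in other cells from several alternative starts. With shCtBP2, its log2 ratios on replicates 1 to 5 were −0.41, −0.70, −0.92, −0.74 and −0.87. With HIPP they were −0.37, −0.73, −0.66, −1.04 and −0.66, and with P4 −0.72, −0.70, −0.74, −1.01 and −0.51. All 15 arrays showed less MITF signal in treated than in control cells, and the 3 treatments overlapped throughout. Whether arrays shared 1 control extract, whose MITF level would then enter every ratio, is not given in the sources used here, and its part was not tested. The means were −0.73 ± 0.20 (SD, n = 5, limma adjusted p = 0.000508), −0.69 ± 0.24 (SD, n = 5, limma adjusted p = 7.62e-05) and −0.74 ± 0.18 (SD, n = 5, limma adjusted p = 0.000173), which is 60.5%, 61.9% and 60.0% of the control signal. The change passed the 1.5-fold threshold of shCtBP2 and not the larger thresholds of the inhibitors. With limma's normexp correction and loess in place of the scanner software's correction the ratios were −0.40, −0.41 and −0.41, so that MITF passed the test and not the fold threshold. With slide as a block, shCtBP2 gave −0.57 (limma adjusted p = 0.061) and did not pass, and with the brightest of its probes P4 gave −0.41 (limma adjusted p = 0.0607). By the methods' t-test, adjusted over all genes tested unless another set is named, MITF passed with shCtBP2 (adjusted p = 0.039) and not with HIPP (0.0949) or P4 (0.126).

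The array has 4 MITF probes, on chromosome 3 between 69998132 and 70100018 in build hg17, plus strand. The most upstream one, listed under transcript NM_198177, covers a junction between positions 69998132 and 70010975 and had log2 ratios of −0.87 ± 0.68, −0.60 ± 0.51 and −0.80 ± 0.50 (SD, n = 5) with shCtBP2, HIPP and P4. Its treated channel was well above background on only 2 of 5 shCtBP2 arrays. The next 2 probes, from 70069697 to 70069756 and from 70097106 to 70097165, had −0.39 ± 0.16, −0.45 ± 0.29 and −0.80 ± 0.20, and −0.77 ± 0.24, −0.57 ± 0.35 and −0.41 ± 0.44. The last one, from 70099959 to 70100018, had −0.88 ± 0.24, −1.16 ± 0.52 and −0.94 ± 0.25. All 12 means of the 4 probes were below 0. Tested probe by probe over all probes of the array, a test added after the data were seen, 11 of these 12 passed, where 7.05% of all probes passed lower with shCtBP2, 25.1% with HIPP and 15.5% with P4. The exception was the probe from 70097106 with P4.

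TFEB, the best known regulator of lysosomal genes (probe at chromosome 6 from 41759977 to 41760036, hg17), had log2 ratios of −0.051, 0.24, −0.0014, 0.20 and 0.0074 with shCtBP2. With HIPP they were −0.66, −0.32, −0.36, 0.14 and −0.38, and with P4 −0.062, −0.17, 0.16, 0.11 and 0.19. The values lay on both sides of 0 in each treatment, with 4 of 5 HIPP arrays below 0. The means were 0.079 ± 0.13 (SD, n = 5, limma adjusted p = 0.693), −0.31 ± 0.29 (SD, n = 5) and 0.046 ± 0.16 (SD, n = 5, limma adjusted p = 0.759). The HIPP value was left out of testing by the filter on variability, and without the filter it passed with a limma adjusted p of 0.0209. Both other members of the family were named after their values were seen. In a list of 17 genes of the same factor family and of nutrient sensing at the lysosome, 15 of which are on the array, TFE3 was higher with both inhibitors, at 0.38 ± 0.084 (SD, n = 5, limma adjusted p = 0.00193) for HIPP and 0.44 ± 0.23 (SD, n = 5, limma adjusted p = 0.00184) for P4. With shCtBP2 it stood at −0.0076 ± 0.033 (SD, n = 5, limma adjusted p = 0.967). None of the 15 arrays had a treated TFEC signal well above background.

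**Figure D2:**
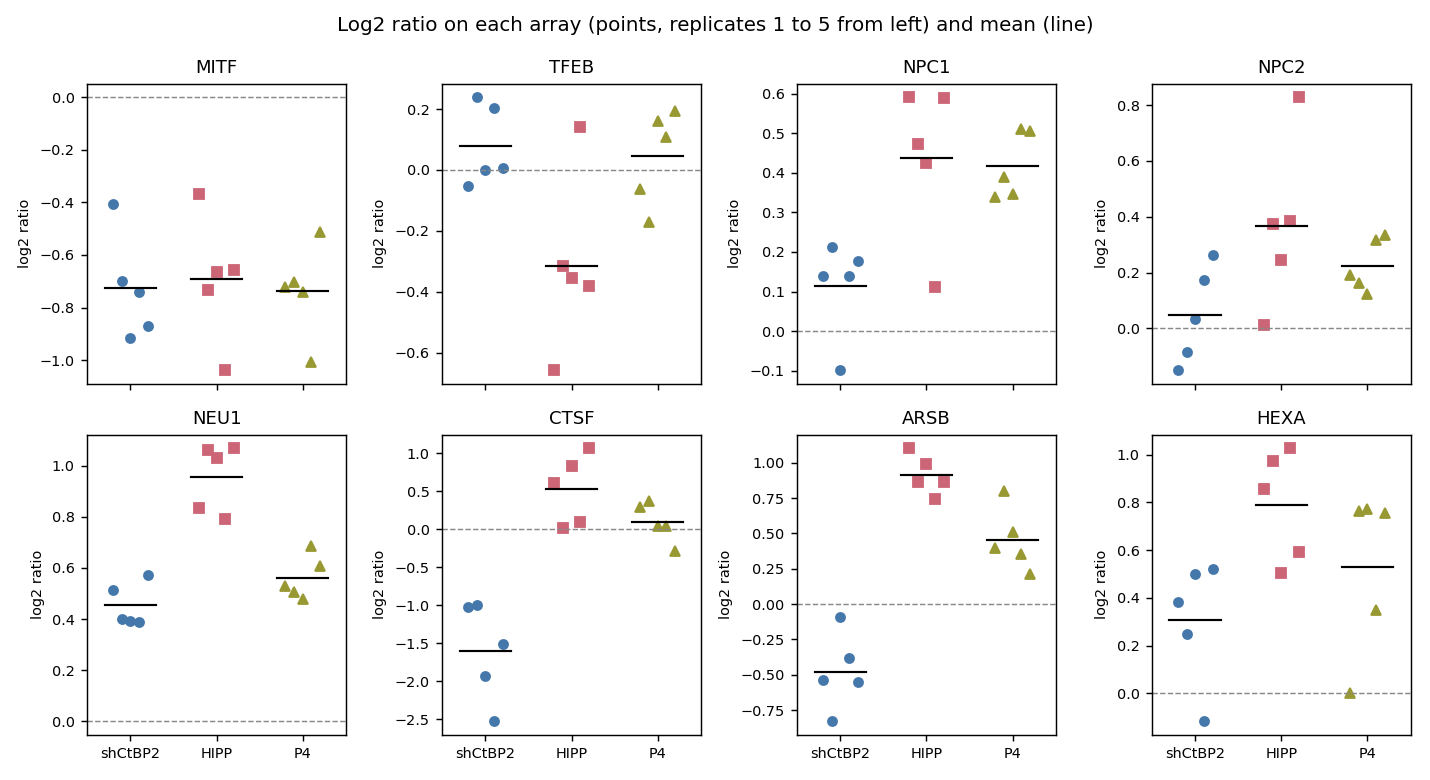
Log2 ratios of 8 members (1 panel each, with its own y axis) on each of the 15 arrays are plotted by treatment, with the mean as a line and 0 dashed. All MITF points lie below 0 and all NEU1 points above it, and the ARSB points of shCtBP2 lie below 0 where those of HIPP and P4 lie above.

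The cholesterol genes NPC1 and NPC2, whose products hand cholesterol from the lysosomal lumen to its membrane, were higher by the test with HIPP, and NPC1 also with P4. NPC1 (probe at chromosome 18 from 19366216 to 19367345, hg17, minus strand) had log2 ratios of 0.14, 0.21, −0.099, 0.14 and 0.18 with shCtBP2, 0.59, 0.47, 0.42, 0.11 and 0.59 with HIPP and 0.34, 0.39, 0.35, 0.51 and 0.51 with P4. All 10 inhibitor arrays were above 0, and HIPP replicate 4 alone among them fell within the range of shCtBP2. The means were 0.11 ± 0.12 (SD, n = 5, limma adjusted p = 0.437), 0.44 ± 0.20 (SD, n = 5, limma adjusted p = 0.000714) and 0.42 ± 0.084 (SD, n = 5, limma adjusted p = 0.00261). The difference from shCtBP2 did not pass, at 0.32 ± 0.13 (SE, 95% interval 0.051 to 0.60, limma adjusted p = 0.0778) for HIPP and 0.30 ± 0.13 (SE, 95% interval 0.026 to 0.58, limma adjusted p = 0.16) for P4. The P4 call was lost with slide as a block (limma adjusted p = 0.178) and with P4 fitted alone (0.0507), and by the methods' t-test the adjusted p was 0.206 for HIPP and 0.126 for P4.

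NPC2, the soluble partner of NPC1 (probe at chromosome 14 from 74016507 to 74016566, hg17, minus strand), had −0.15, −0.085, 0.032, 0.17 and 0.26 with shCtBP2, 0.011, 0.37, 0.24, 0.38 and 0.83 with HIPP and 0.19, 0.16, 0.12, 0.32 and 0.33 with P4. The 3 treatments overlapped, and HIPP replicate 5 was the highest array. The means were 0.047 ± 0.17 (SD, n = 5, limma adjusted p = 0.816), 0.37 ± 0.30 (SD, n = 5, limma adjusted p = 0.00949) and 0.22 ± 0.094 (SD, n = 5, limma adjusted p = 0.116), so that only HIPP passed the test. Without HIPP replicate 5 it no longer did, at 0.25 (limma adjusted p = 0.0575), nor did it with HIPP fitted alone (limma adjusted p = 0.0818) or by the methods' t-test (0.156). LIPA, the acid lipase that frees cholesterol from its esters, was above 0 on 5 of 5 shCtBP2 arrays at 0.56 ± 0.23 (SD, n = 5, limma adjusted p = 0.117) and did not pass the test in any treatment.

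Among the 5 membrane and acidification members, SCARB2 and LAMP2 passed the test, both with HIPP (2 of 4 tested, where 48.3% of all genes passed) and in opposite directions. SCARB2, the receptor that carries glucocerebrosidase to lysosomes, was at 0.88 ± 0.38 (SD, n = 5, limma adjusted p = 6.14e-05) with 5 of 5 arrays above 0, and at 0.33 ± 0.29 (SD, n = 5, limma adjusted p = 0.0678) with P4 and 0.28 ± 0.097 (SD, n = 5, limma adjusted p = 0.179) with shCtBP2. LAMP2, a major glycoprotein of the lysosomal membrane that is also needed for autophagy, was at −0.60 ± 0.58 (SD, n = 5, limma adjusted p = 0.00671). Without HIPP replicate 4 the value was −0.35 (limma adjusted p = 0.0197), and the call was lost with HIPP fitted alone (limma adjusted p = 0.0648) and by the methods' t-test (0.159). LAMP1, its close relative, MCOLN1, a calcium channel, and ATP6AP1, an accessory subunit of the V-ATPase, had means between −0.21 and 0.087 over the 3 treatments. LAMP1 was tested with shCtBP2, MCOLN1 with HIPP and ATP6AP1 with both inhibitors, and none of these 4 tests was passed. The 2 LAMP1 probes differed, and taken by themselves 1 was higher with shCtBP2 at 0.35 (limma adjusted p = 0.0495) and with HIPP at 0.40 (limma adjusted p = 0.00371) and the other lower with P4 at −0.51 (limma adjusted p = 0.0118). Of the ATP6AP1 probes, 1 was lower by itself with HIPP, at −0.41 (limma adjusted p = 0.0202).

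The cathepsins and peptidases, the proteases of the lysosome, divided. CTSF, a cysteine cathepsin, had a lower ratio with shCtBP2 and a higher one with HIPP (probe at chromosome 11 from 66087519 to 66087578, hg17, minus strand). With shCtBP2 its log2 ratios were −1.03, −1.002, −1.93, −2.53 and −1.51, with HIPP 0.61, 0.0082, 0.83, 0.096 and 1.06 and with P4 0.29, 0.37, 0.039, 0.046 and −0.29. All 5 shCtBP2 arrays lay below the 10 arrays of the inhibitors. The means were −1.60 ± 0.64 (SD, n = 5, limma adjusted p = 0.000169), 0.52 ± 0.46 (SD, n = 5, limma adjusted p = 0.0466) and 0.091 ± 0.26 (SD, n = 5, limma adjusted p = 0.755). The gene was dim, since on the shCtBP2 arrays its treated channel was well above background on 1 of 5 and its control channel on 3 of 5. With normexp correction (offset 50) and loess, CTSF stood at −0.23 (limma adjusted p = 0.0116) with shCtBP2, less than MITF in the same fit, and was no longer differentially expressed. By the methods' t-test it did not pass when adjusted over all genes tested (adjusted p = 0.203) or over the genes past the fold threshold (0.0675). With HIPP, where both channels were well above background on 5 of 5 arrays, the call was lost when any 1 of HIPP replicates 1, 3 or 5 or of 6 arrays of the other treatments was left out (limma adjusted p = 0.0501 to 0.184). It was also lost with normexp and loess, at 0.076 (limma adjusted p = 0.267), with slide as a block, with HIPP fitted alone, by the methods' t-test and in the deposited ratios (adjusted p = 0.0525 to 0.174).

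CTSZ, a carboxypeptidase, was lower with both inhibitors, at −0.45 ± 0.22 (SD, n = 5, limma adjusted p = 0.00193) with HIPP and −0.71 ± 0.092 (SD, n = 5, limma adjusted p = 0.00018) with P4, on 10 of 10 arrays. With slide as a block the P4 value was −0.39 (limma adjusted p = 0.147) and did not pass, nor did it by the methods' t-test (adjusted p = 0.0528). CTSK, the collagen-degrading cathepsin of osteoclasts, was also lower with both, at −0.32 ± 0.24 (SD, n = 5, limma adjusted p = 0.0275) and −0.40 ± 0.29 (SD, n = 5, limma adjusted p = 0.0151), where with shCtBP2 its mean was 0.21 ± 0.13 (SD, n = 5). The CTSK calls were lost without HIPP replicate 1, 2 or 3 (limma adjusted p = 0.0508 to 0.117) and without P4 replicate 3 (limma adjusted p = 0.0604). CTSB and TPP1, a tripeptidyl peptidase, passed the test lower with P4, at −0.46 ± 0.24 (SD, n = 5, limma adjusted p = 0.00358) and −0.51 ± 0.36 (SD, n = 5, limma adjusted p = 0.0211), the latter not without P4 replicate 1 or 5 (limma adjusted p = 0.0758 to 0.078). In the other direction, CTSS, a cathepsin of antigen-presenting cells, was higher with both inhibitors, at 0.55 ± 0.31 (SD, n = 5, limma adjusted p = 0.00521) for HIPP and 0.57 ± 0.32 (SD, n = 5, limma adjusted p = 0.00732) for P4. Its brighter probe was well above background in the treated channel on 5 of 5 HIPP arrays and 3 of 5 P4 arrays, and with normexp correction and loess the ratios were 0.09 and 0.061 and did not pass. With HIPP the call was also lost with the brightest probe (limma adjusted p = 0.117), with background-subtracted and median-centred signals (0.0827) and in the deposited ratios, where the value was 0.28 (0.142), and with P4 the probe nearest the 3′ end gave 0.29 (0.225). CTSL1 was higher with HIPP at 0.43 ± 0.49 (SD, n = 5, limma adjusted p = 0.0326), a call lost without HIPP replicate 1, 2, 3 or 5 (limma adjusted p = 0.0693 to 0.129). CTSD, the aspartic cathepsin, had means of −0.24 ± 0.23, −0.36 ± 0.57 and −0.37 ± 0.77 (SD, n = 5) and a spread larger than its mean with both inhibitors. None of the 3 values passed. CTSA was tested with P4 alone, at −0.10 ± 0.18 (SD, n = 5, limma adjusted p = 0.341), while its 2 probes by themselves passed in opposite directions with HIPP, at 0.38 (limma adjusted p = 0.00369) and −0.28 (limma adjusted p = 0.0461). From the 3′ to the 5′ end, the CTSB probes were at 0.06 ± 0.19, −0.48 ± 0.20 and −0.97 ± 0.46 (SD, n = 5) with P4. With HIPP the CTSB mean was not tested. Its probes by themselves passed in both directions, at 0.30 (limma adjusted p = 0.0116), −0.25 (0.0484) and −0.65 (0.0041). The slide block ended the calls of CTSB, TPP1, CTSK and CTSS with P4 and of CTSK and CTSL1 with HIPP (limma adjusted p = 0.0839 to 0.437). In that fit the values with P4 were −0.61 for CTSB, −0.67 for TPP1 and 0.77 for CTSS, farther from 0 than without the block, while CTSK and CTSL1 lay nearer to it. The same 6 calls were lost with each treatment fitted alone (0.0506 to 0.109), and they and that of CTSS with HIPP by the methods' t-test (0.0655 to 0.479).

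Of the 10 glycosidases, which trim sugars from glycoproteins, glycolipids and glycosaminoglycans, 5 of 8 tested rose and 2 fell with HIPP, 3 of 7 rose with P4, and 1 of 7 rose with shCtBP2. Over all genes tested 24.6% rose and 23.7% fell with HIPP, 16.6% and 14.5% with P4 and 6.24% and 6.58% with shCtBP2. NEU1, the sialidase (probe at chromosome 6 from 31935125 to 31935184, hg17, minus strand), was the only member that was higher by the test in all 3 treatments. Its log2 ratios were 0.52, 0.40, 0.39, 0.39 and 0.57 with shCtBP2, 0.83, 1.06, 1.03, 0.79 and 1.07 with HIPP and 0.53, 0.50, 0.48, 0.69 and 0.61 with P4. Every array was above 0, the 5 HIPP arrays lay above all others, and the ranges of shCtBP2 and P4 overlapped. The means were 0.45 ± 0.084 (SD, n = 5, limma adjusted p = 0.00172), 0.96 ± 0.13 (SD, n = 5, limma adjusted p = 1.76e-07) and 0.56 ± 0.085 (SD, n = 5, limma adjusted p = 0.000139), or 1.37-fold, 1.94-fold and 1.48-fold of the control. These folds did not reach the thresholds for differential expression. With slide as a block, the adjusted p of limma was 0.0701 for shCtBP2, 5.75e-05 for HIPP and 0.0593 for P4, at ratios of 0.46, 0.94 and 0.57. On slide 3, which held both, the 2 HIPP arrays averaged 0.93 and the 2 shCtBP2 arrays 0.46.

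HEXA, the alpha subunit of the hexosaminidase that is lacking in Tay-Sachs disease, was higher with HIPP at 0.79 ± 0.23 (SD, n = 5, limma adjusted p = 0.000162), on 5 of 5 arrays. With P4 it was above 0 on 5 of 5 arrays at 0.53 ± 0.34 (SD, n = 5) but left out of testing. The HEXA mean includes a probe on the plus strand, opposite to the other HEXA probes. With P4 that probe was well above background in the treated channel on 1 of 5 arrays and in the control channel on 0, and ran from −1.40 to 1.91. The other HEXA probes passed by themselves with P4, at 0.55 (limma adjusted p = 0.00298) and 0.58 (0.00106). GUSB, the glucuronidase often used as a reference gene, was higher with both inhibitors, at 0.50 ± 0.23 (SD, n = 5, limma adjusted p = 0.000379) for HIPP and 0.33 ± 0.11 (SD, n = 5, limma adjusted p = 0.014) for P4. GLA, the galactosidase of Fabry disease, was higher with P4 at 0.43 ± 0.11 (SD, n = 5, limma adjusted p = 0.00482) and, by a smaller amount, with HIPP at 0.26 ± 0.16 (SD, n = 5, limma adjusted p = 0.0446). GAA, the acid glucosidase that degrades glycogen, passed with HIPP at 0.49 ± 0.48 (SD, n = 5, limma adjusted p = 0.0127). In the opposite direction, GLB1, the acid galactosidase, and NAGLU, an enzyme of heparan sulfate breakdown, were lower with HIPP at −0.37 ± 0.28 (SD, n = 5, limma adjusted p = 0.0446) and −0.36 ± 0.14 (SD, n = 5, limma adjusted p = 0.00703). The GLB1 probes stood at −0.61 ± 0.33 and −0.14 ± 0.27 (SD, n = 5) with HIPP and differed by 0.47 (limma adjusted p = 0.000175). With HIPP, the call of GAA was lost without HIPP replicate 4 or 5 (limma adjusted p = 0.058 to 0.0703). That of GLA was lost without HIPP replicate 2, 3, 4 or 5 or 1 of 6 arrays of the other treatments (limma adjusted p = 0.0501 to 0.145), and that of GLB1 without HIPP replicate 1, 2, 4 or 5 or 1 of 4 others (limma adjusted p = 0.0527 to 0.17). With background-subtracted and median-centred signals, GLA with HIPP was at 0.14 (limma adjusted p = 0.307). Fitting slide as a block ended the calls of GUSB and GLA with P4 and of GLA, GLB1 and NAGLU with HIPP (limma adjusted p = 0.117 to 0.322), with both P4 values farther from 0 (0.43 and 0.52) and the 3 HIPP values nearer to it. With each treatment fitted alone, GUSB with P4 and GLA, GLB1, NAGLU and GAA with HIPP did not pass (0.0515 to 0.133), and by the methods' t-test none of the calls of GUSB, GLA, GAA, GLB1 and NAGLU was kept (0.104 to 0.358). IDUA was not tested with HIPP, MANBA not with shCtBP2 and MAN2B1 with P4 alone, and none of the 3 passed where tested, with means from −0.15 to 0.29.

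Among the sulfatases, ARSB fell with shCtBP2 and rose with both inhibitors. ARSB, which removes sulfate from dermatan and chondroitin sulfate (probe at chromosome 5 from 78217164 to 78217223, hg17, minus strand, listed under transcript NM_198709), had log2 ratios of −0.54, −0.83, −0.091, −0.38 and −0.55 with shCtBP2, 1.10, 0.86, 0.99, 0.74 and 0.86 with HIPP and 0.39, 0.80, 0.51, 0.35 and 0.22 with P4. All 5 shCtBP2 arrays were below 0 and all 10 inhibitor arrays above it. The means were −0.48 ± 0.27 (SD, n = 5, limma adjusted p = 0.0104), 0.91 ± 0.14 (SD, n = 5, limma adjusted p = 7.58e-06) and 0.45 ± 0.22 (SD, n = 5, limma adjusted p = 0.00616). Its array values are given because of this pattern and were chosen after they were seen. The shCtBP2 call was lost without shCtBP2 replicate 2 (limma adjusted p = 0.0573), with slide as a block (0.142) and by the methods' t-test (0.061). The P4 call was lost with slide as a block, at 0.28 (limma adjusted p = 0.357), with P4 fitted alone (0.0617) and by the methods' t-test (0.197). With normexp correction and loess the ratio with HIPP was 0.32 (limma adjusted p = 0.00102) and that with P4 0.17 (limma adjusted p = 0.0505). SGSH, the sulfamidase of heparan sulfate, was lower with shCtBP2 at −0.49 ± 0.12 (SD, n = 5, limma adjusted p = 0.0376), on 5 of 5 arrays, and had means of −0.48 ± 0.40 and −0.44 ± 0.37 (SD, n = 5) with HIPP and P4. ARSA, the sulfatase that acts on sulfatide, was higher with both inhibitors, at 0.42 ± 0.25 (SD, n = 5, limma adjusted p = 0.00709) for HIPP and 0.36 ± 0.24 (SD, n = 5, limma adjusted p = 0.0306) for P4. The call for SGSH was lost when any 1 of the 5 shCtBP2 arrays or P4 replicate 5 was left out (limma adjusted p = 0.0505 to 0.108), and that for ARSA with P4 without P4 replicate 1, 3, 4 or 5 (limma adjusted p = 0.0591 to 0.129). SGSH, at −0.76 (limma adjusted p = 0.0672), and ARSA with P4, at 0.53 (0.139), did not pass with slide as a block, and by the methods' t-test ARSA did with neither inhibitor (0.247 to 0.648). With normexp correction and loess ARSA was at 0.18 (limma adjusted p = 0.0215) with HIPP and 0.16 (0.0501) with P4. Its P4 call was also lost with P4 fitted alone (limma adjusted p = 0.118). IDS, a sulfatase of dermatan and heparan sulfate, was not tested, and its probes are described further on.

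Of the 4 members of sphingolipid and acyl group breakdown, 1 passed the test in 1 treatment (1 of 3 tested with P4, where 31.1% of all genes passed). PSAP, the precursor of the saposins that help hydrolases reach their lipid substrates, was at −0.67 ± 0.74 (SD, n = 5, limma adjusted p = 0.0328) with P4, lower on 4 of 5 arrays, and did not pass without P4 replicate 1, 4 or 5 (limma adjusted p = 0.0935 to 0.132), with slide as a block, where the value was −1.44 (0.0563), with P4 fitted alone (0.14) or by the methods' t-test (0.19). ASAH1, acid ceramidase, was above 0 on 5 of 5 arrays with shCtBP2 and with P4 but did not pass, at 0.32 ± 0.30 (SD, n = 5, limma adjusted p = 0.12) and 0.22 ± 0.14 (SD, n = 5, limma adjusted p = 0.192). These average a bright probe, at 0.11 ± 0.032 and 0.067 ± 0.79 (SD, n = 5), and a dim one, at 0.53 ± 0.59 and 0.38 ± 0.53. With shCtBP2 the dim probe was well above background in the treated channel on 2 of 5 arrays and in the control channel on 0. SMPD1, acid sphingomyelinase, and PPT1, a thioesterase, had means between −0.28 and 0.074 and did not pass where tested.

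Whether an inhibitor differed from the hairpin was tested for each member tested in both treatments. HIPP differed from shCtBP2 for 6 of 21 members, where 25.3% of all genes passed, and P4 for 4 of 21, where 10.6% passed. ARSB differed by 1.39 ± 0.16 (SE, 95% interval 1.05 to 1.73, limma adjusted p = 1.59e-05) for HIPP and 0.93 ± 0.16 (SE, 95% interval 0.59 to 1.27, limma adjusted p = 0.00171) for P4. CTSF differed by 2.12 ± 0.29 (SE, 95% interval 1.505 to 2.74, limma adjusted p = 7.69e-05) and 1.69 ± 0.29 (SE, 95% interval 1.07 to 2.31, limma adjusted p = 0.00174), but its treated channel passed the background level on 1 of 5 shCtBP2 arrays, so that these values do not give the size of its change. With slide as a block the CTSF differences were 1.595 (limma adjusted p = 0.0137) and 0.82 (0.384). CTSK was lower with the inhibitors than with the hairpin, at −0.53 ± 0.16 (SE, 95% interval −0.88 to −0.18, limma adjusted p = 0.0263) for HIPP and −0.61 ± 0.17 (SE, 95% interval −0.96 to −0.26, limma adjusted p = 0.0289) for P4. With the block the CTSK differences were −0.35 (limma adjusted p = 0.337) and −0.33 (0.613) and did not pass. NEU1 and SCARB2 were higher with HIPP, by 0.50 ± 0.12 (SE, 95% interval 0.26 to 0.75, limma adjusted p = 0.00444) and 0.60 ± 0.19 (SE, 95% interval 0.20 to 1.00, limma adjusted p = 0.0289), and NAGLU was lower, at −0.41 ± 0.14 (SE, 95% interval −0.71 to −0.10, limma adjusted p = 0.0486). For NEU1, SCARB2 and NAGLU the slide block gave differences of 0.47 (limma adjusted p = 0.106), 0.16 (limma adjusted p = 0.686) and −0.21 (limma adjusted p = 0.52), and none passed. CTSB, whose probes differed with P4, was lower with P4 in the mean of its probes, at −0.55 ± 0.15 (SE, 95% interval −0.87 to −0.23, limma adjusted p = 0.0296), and stood at −0.84 (limma adjusted p = 0.194) with the block. For MITF the differences were 0.035 ± 0.15 (SE, 95% interval −0.29 to 0.36, limma adjusted p = 0.893) and −0.011 ± 0.16 (SE, 95% interval −0.34 to 0.32, limma adjusted p = 0.975). For NPC2 they were 0.32 ± 0.15 (SE, 95% interval −0.0054 to 0.65, limma adjusted p = 0.145) and 0.18 ± 0.15 (SE, 95% interval −0.15 to 0.51, limma adjusted p = 0.515). On slide 3, the only slide with both, ARSB was at 0.74 and 0.86 on the HIPP arrays against −0.54 and −0.83 on the shCtBP2 arrays, and CTSF at 0.096 and 1.06 against −1.03 and −1.002. With slide as a block, 0.652% of all genes and 0 of the 21 members passed limma's test for P4, where the lowest adjusted p of a member was 0.106. For HIPP 6 members passed, ARSB and CTSF again with NPC2, GAA, ASAH1 and LIPA, where 21.7% of all genes passed.

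Probes of 1 gene could differ within the gene's mean. For 12 members, the probes nearest the 3′ and the 5′ end of the gene were both well above background in both channels on at least 12 arrays. With HIPP the difference between them passed the test for 9 of 12 members, and with P4 also for 9, where 68.6% and 44.1% of 4669 genes with 2 such probes passed. With shCtBP2 it did for 1 (GLB1), where 11.6% of all passed. The 3′ probe was the higher one by the test in 7 of the 12 members with either inhibitor, against 25% and 22.9% of all genes (6.73% with shCtBP2). The median of the difference was 0.36 over the members and −0.17 over all genes with HIPP, and 0.36 and 0.038 with P4. Over all genes it lay between −0.23 and 0.098 on the single arrays. The part of probe position, cross-hybridization or RNA quality in these differences was not tested. These comparisons were added after the data were seen.

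IDS had the largest such difference with HIPP, between probes that are listed under different transcripts. Its 3′ probe, at chromosome X from 148270012 to 148270071 (hg17, minus strand) and listed under transcript NM_000202, was at 0.71 ± 0.073 (SD, n = 5) with HIPP and 0.45 ± 0.10 with P4. Its 5′ probe, from 148291471 to 148291530 and listed under NM_006123, was at −0.55 ± 0.74 and −0.69 ± 0.82. The difference was 1.26 ± 0.69 (SD, n = 5, limma adjusted p = 0.000328) with HIPP and 1.15 ± 0.73 (SD, n = 5, limma adjusted p = 0.00185) with P4, with the 3′ probe higher on 10 of 10 arrays, while the mean over all 3 IDS probes was 0.029 and −0.23. CTSB had 3′ over 5′ differences of 0.94 ± 0.38 (SD, n = 5, limma adjusted p = 6.48e-05) and 1.03 ± 0.41 (SD, n = 5, limma adjusted p = 0.000132), and LAMP1 and CTSA followed with 0.62 and 0.66 with HIPP.

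LAMP2 went the other way and its probes belong to different transcripts. The probe at chromosome X from 119346849 to 119346908 (hg17, minus strand) is listed under NM_002294, the isoform LAMP2A, which serves chaperone-mediated autophagy. It was at −1.16 ± 0.77 (SD, n = 5, limma adjusted p = 0.000373) with HIPP and −0.98 ± 0.38 (SD, n = 5, limma adjusted p = 0.00303) with P4. The probe from 119353076 to 119353135 is listed under NM_013995, the isoform LAMP2B, and was at −0.033 ± 0.48 and 0.18 ± 0.20 (SD, n = 5). With shCtBP2 the probes stood at −0.13 ± 0.19 and −0.038 ± 0.23. The difference between them was −1.12 ± 0.52 (SD, n = 5, limma adjusted p = 8.36e-05) with HIPP and −1.16 ± 0.36 (SD, n = 5, limma adjusted p = 0.000247) with P4, and the NM_002294 probe was the lower one on 10 of 10 arrays.

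**Figure D3:**
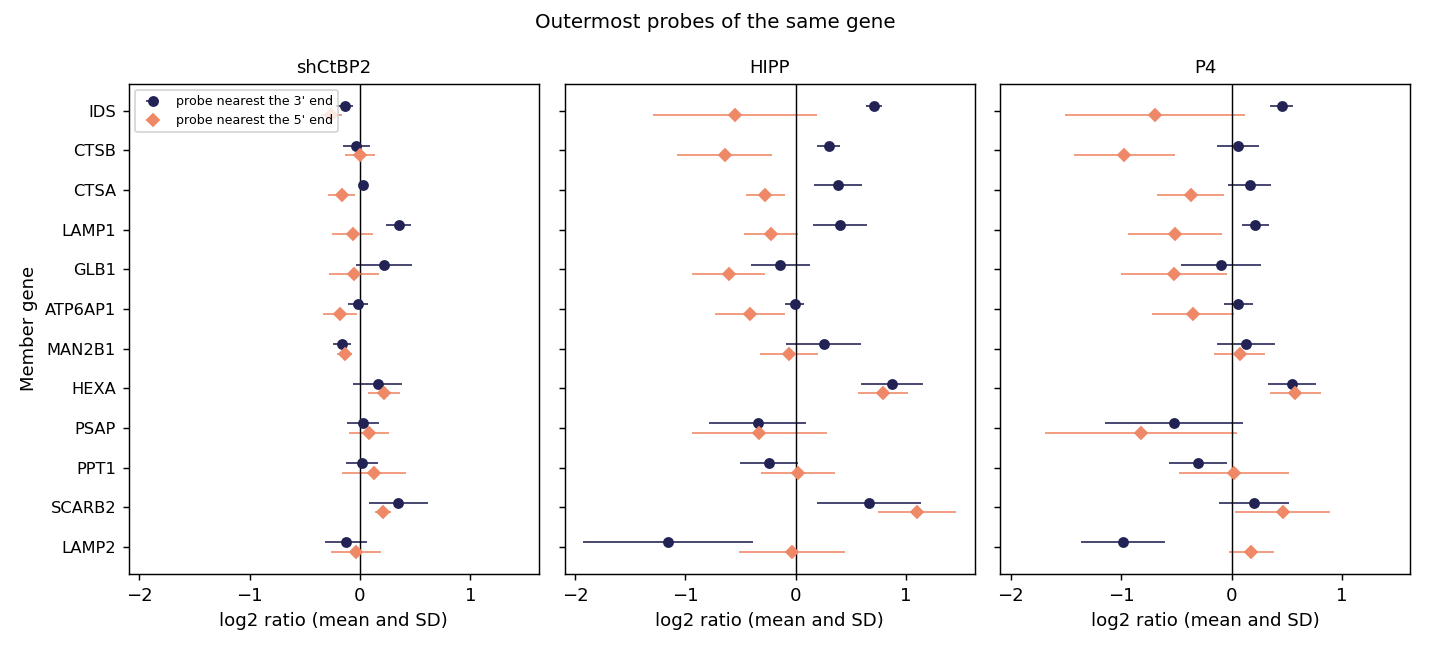
For the 12 members with outermost probes above background, the log2 ratio (x axis) of the probe nearest the 3′ end (circles) and of the probe nearest the 5′ end (diamonds) is plotted as mean and SD of the arrays of a treatment (panels). With HIPP and P4 the probes of IDS, CTSB, LAMP1 and CTSA stand apart with the 3′ probe on the right, and those of LAMP2 with the 3′ probe on the left.

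The 8 members with the E-box named above held 4 of 6 tested that rose and 0 that fell with HIPP (CTSF, GAA, NEU1 and ARSB), 2 that rose and 0 that fell with P4 (NEU1 and ARSB), and 1 that rose and 2 that fell with shCtBP2 (NEU1, and CTSF and ARSB). Of the members with a window but no E-box, 6 rose and 3 fell of 13 tested with HIPP, 3 and 3 of 15 with P4, and 0 and 1 of 13 with shCtBP2. Over all genes tested, 24.6% rose and 23.7% fell with HIPP, 16.6% and 14.5% with P4, and 6.24% and 6.58% with shCtBP2. The median log2 ratios of the E-box members were −0.095, 0.29 and 0.069 for shCtBP2, HIPP and P4. Those of the 18 members with a window but no E-box were 0.033, 0.0092 and 0.074. The ranges of both groups overlapped in each treatment, and LAMP1, with the most copies of the motif, had means of 0.081, 0.087 and −0.15.

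The rest of the pathway was read from 7 lists of 115 genes, 111 of which are on the array. With HIPP, the largest rises in these lists were those of VPS18 and GABARAPL1, autophagy genes of the TFEB programme. In that list 7 higher and 2 lower of 12 tested passed with HIPP, with P4 4 higher and 0 lower of 11 tested and with shCtBP2 1 higher and 0 lower of 9 tested. With HIPP, P4 and shCtBP2 these are 75%, 36.4% and 11.1% of the genes tested, against 48.3%, 31.1% and 12.8% of all genes. The list's medians were 0.33, 0.04 and 0.076. MAP1LC3B and GABARAPL1, ubiquitin-like proteins of the autophagosome membrane, were at 1.35 ± 0.41 (SD, n = 5, limma adjusted p = 8.14e-07) and 2.44 ± 0.68 (SD, n = 5, limma adjusted p = 2.93e-07) with HIPP, and at 0.97 ± 0.19 (SD, n = 5, limma adjusted p = 8.5e-05) and 1.04 ± 0.51 (SD, n = 5, limma adjusted p = 0.0019) with P4. VPS18, a subunit of the tethering complexes of late endosomes, was at 3.40 ± 1.54 (SD, n = 5, limma adjusted p = 3.87e-06) with HIPP, with single arrays from 1.62 to 5.22. WIPI1, a phosphoinositide-binding protein of early autophagosomes, passed the test higher in all 3 treatments, at 0.59 ± 0.22 (SD, n = 5, limma adjusted p = 0.00519) with shCtBP2, 0.83 ± 0.32 (SD, n = 5, limma adjusted p = 4.78e-05) with HIPP and 0.67 ± 0.19 (SD, n = 5, limma adjusted p = 0.000872) with P4.

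Of the 20 other lysosomal membrane proteins, 19 of which are on the array, CD68 was the highest with HIPP at 2.01 ± 0.26 (SD, n = 5, limma adjusted p = 5.28e-08), and also passed with P4 at 1.12 ± 0.41 (SD, n = 5, limma adjusted p = 5.58e-05). LAMP3, a LAMP family protein, and SLC36A1, an amino acid transporter, were differentially expressed with P4 at 1.48 ± 0.24 (SD, n = 5, limma adjusted p = 0.00149) and 0.87 ± 0.64 (SD, n = 5, limma adjusted p = 0.0028). LAPTM4B was lower with P4 at −1.05 ± 1.01 (SD, n = 5, limma adjusted p = 0.0319) and stood at −1.17 ± 1.05 (SD, n = 5, limma adjusted p = 0.0115) with HIPP. With HIPP, LAMP3 stood at 0.41 ± 1.12 (SD, n = 5, limma adjusted p = 0.241) and SLC36A1 at 0.30 ± 0.28 (SD, n = 5, limma adjusted p = 0.192). CD68 is also a marker of macrophages. Of 4 other macrophage markers, CD14 and CSF1R were well above background in both channels on all 15 arrays, with HIPP ratios of −0.067 ± 0.085 and −0.0048 ± 0.24 (SD, n = 5), ITGAM was at 0.29 ± 0.37, and PTPRC was well above background in the treated channel on none. Their part in the CD68 value was not tested. In this list 3 higher and 5 lower of 16 tested passed with HIPP, 3 higher and 4 lower of 12 tested with P4 and 2 higher and 1 lower of 14 tested with shCtBP2 (50%, 58.3% and 21.4% of the genes tested, against 48.3%, 31.1% and 12.8% of all genes), at medians of 0.026, −0.026 and −0.0053.

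Subunits of the V-ATPase moved in both directions. ATP6V0E1 was higher with P4 at 0.92 ± 0.15 (SD, n = 5, limma adjusted p = 7.14e-06), while its paralogue ATP6V0E2 and the cytosolic subunit ATP6V1B2 were lower at −0.97 ± 0.46 (SD, n = 5, limma adjusted p = 0.000275) and −1.01 ± 0.64 (SD, n = 5, limma adjusted p = 0.0083). With HIPP all 3 passed in the same directions, at 0.96 ± 0.19 (SD, n = 5, limma adjusted p = 7.21e-07), −1.19 ± 0.34 (SD, n = 5, limma adjusted p = 1.24e-05) and −0.96 ± 0.85 (SD, n = 5, limma adjusted p = 0.00598), under the larger fold threshold of HIPP. Of 18 subunits on the array, 4 higher and 5 lower of 14 tested passed with HIPP, 1 higher and 3 lower of 14 tested with P4 and 2 higher and 0 lower of 11 tested with shCtBP2, or 64.3%, 28.6% and 18.2% of the genes tested, against 48.3%, 31.1% and 12.8% of all genes. Among 28 further hydrolases and activators on the array, 6 higher and 10 lower of 24 tested passed with HIPP, 2 higher and 6 lower of 22 tested with P4 and 1 higher and 1 lower of 24 tested with shCtBP2, which makes 66.7%, 36.4% and 8.33% of the genes tested, against 48.3%, 31.1% and 12.8% of all genes. The one differentially expressed among them was CTSV, a close relative of CTSL1, at 1.11 ± 0.20 (SD, n = 5, limma adjusted p = 7.49e-05) with shCtBP2. In the mannose 6-phosphate sorting list of 9 genes, 3 higher and 3 lower of 8 tested passed with HIPP, 1 higher and 3 lower of 6 tested with P4 and 0 higher and 1 lower of 4 tested with shCtBP2. In shares this is 75%, 66.7% and 25% of the genes tested, against 48.3%, 31.1% and 12.8% of all genes.

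In the list of factors and nutrient sensing, 2 higher and 2 lower of 10 tested passed with HIPP, 2 higher and 0 lower of 7 tested with P4 and 2 higher and 0 lower of 11 tested with shCtBP2, or 40%, 28.6% and 18.2% of the genes tested, against 48.3%, 31.1% and 12.8% of all genes. LAMTOR3, part of the complex that anchors mTORC1 to lysosomes, was differentially expressed with shCtBP2 at 0.67 ± 0.28 (SD, n = 5, limma adjusted p = 0.0493), and stood at 0.61 ± 0.67 (SD, n = 5, limma adjusted p = 0.026) with HIPP and 0.44 ± 0.45 (SD, n = 5, limma adjusted p = 0.122) with P4. RRAGB, a Rag GTPase, was lower with HIPP at −1.48 ± 0.97 (SD, n = 5, limma adjusted p = 0.000255). None of the 5 arrays had a treated signal of RRAGB well above background, so that only a bound holds, which is at least 1.09-fold lower after normexp correction, loess and quantile normalization of the mean intensities, with the dim signal raised to the lowest signal well above background. Of 8 melanocyte targets of MITF, limma's test was passed by 0 of 6 tested with shCtBP2, 1 of 6 with HIPP (PMEL, at a mean of 0.27 ± 0.13) and 1 of 7 with P4 (MLANA, at 0.72 ± 0.72; SD, n = 5), both higher and named after their values were seen. Of all genes tested, 12.8%, 48.3% and 31.1% passed. None of the 15 arrays had TYRP1 or TRPM1 well above background in either channel, while the treated channel passed that level on 6 arrays for TYR and on 5 for MLANA.

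**Figure D4:**
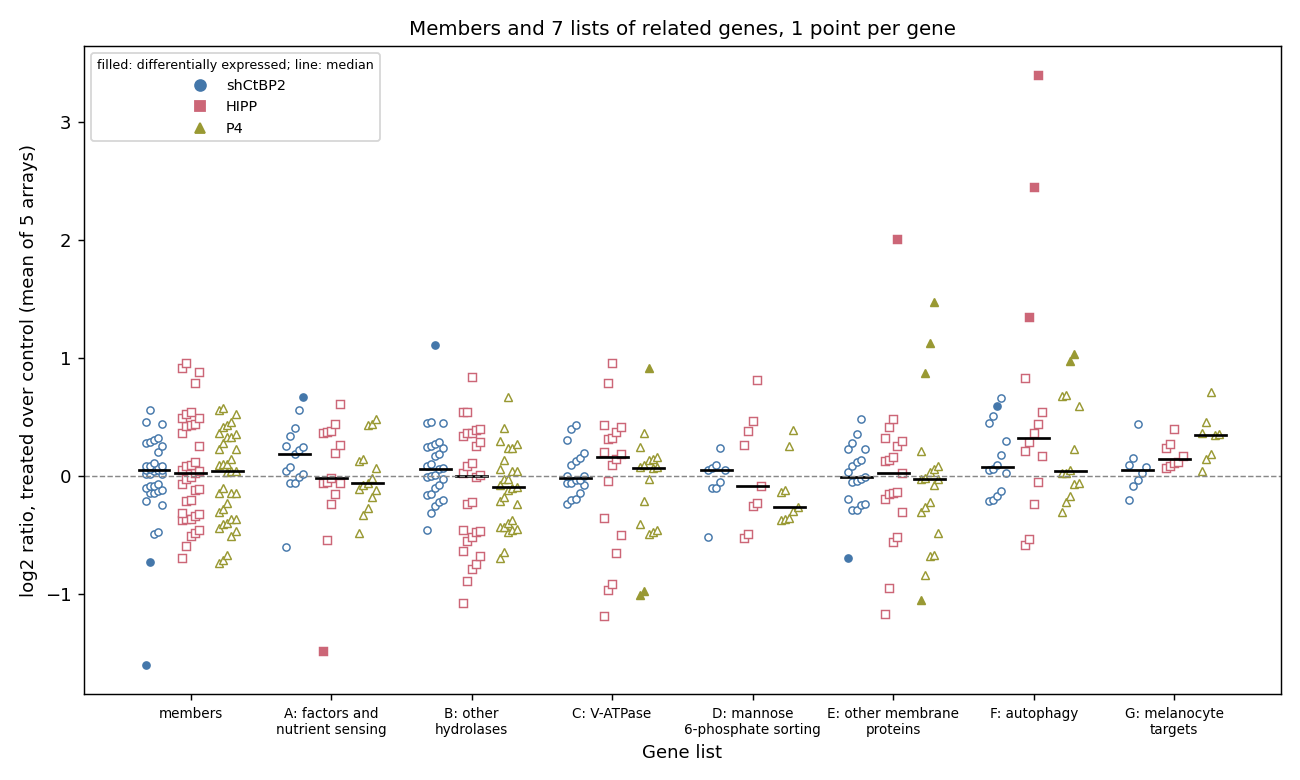
The mean log2 ratio over 5 arrays (y axis) of each gene is plotted for the 37 members and for 7 lists of related genes (x axis) by treatment, with the median as a line and differentially expressed genes filled. The medians lie between −0.26 and 0.35, and the highest points are VPS18, GABARAPL1 and CD68 with HIPP.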

How the data were processed

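RNA of treated (Cy5) and control (Cy3) MDA-MB-231 cells was hybridized on 15 two-colour Agilent whole human genome arrays, 5 per treatment. Per the labels and the file headers, the authors extracted fluorescence intensity with Agilent Feature Extraction, which subtracted background and normalized the dyes, and the deposited scanner files hold these intensities per spot. The deposited table of the series holds the authors' log10 ratios of Cy5 over Cy3. It differed from the log10 ratio of the scanner files by at most 0.005 on every array, had a median of 0 in each column, and served as an alternative.

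Here log2 ratios of the processed signals were taken without further centring (medians of the arrays −0.12 to 0.12). Control spots and outlier flags were left out (78 to 265 of 43376 gene spots per array), and the spots and probes of a gene name were averaged. The share of spots well above background was 65.2% to 77.5% for the treated and 64.9% to 81.0% for the control channel, and 0 spots were saturated. A filter on the interquartile range removed the least variable 11% of genes per treatment, as the study's methods state, and genes measured on at least 3 arrays were tested. limma 3.58.1 (R 4.3.3) was fitted to all 15 arrays with 1 coefficient per treatment, and p-values were adjusted by Benjamini-Hochberg over 27574 genes. The fit was tested on simulated data. The number of arrays, 5 per treatment, limits the precision. Replicate numbers were not shown to pair arrays.

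Values on every array are given for NPC1, NPC2, MITF and TFEB, for members that were differentially expressed and for those that passed in 1 direction in all treatments. The other members are given by role. From the lists, up to 4 differentially expressed genes each are named. The members, the lists and the tests were chosen with earlier results of these data known. RefSeq windows (GRCh38.p14) were used for motifs only, and no coordinates were converted between builds. Alternatives were the background correction and normalization, the filters, the choice of probes, the replicate number and the slide as blocks, each treatment fitted alone, the methods' t-test (adjusted over all genes tested, whereas the study's methods first removed genes under the fold threshold, an order tried after the data were seen), another fold threshold, the deposited ratios and each array left out. Of 115 list genes, 111 were found on the array, 17 under an older name.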

Additional observations from a re-analysis of the deposited data

Results flagged for a closer look

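In each of 111 sets of 5 arrays (37 members under 3 treatments), the highest and the lowest array were compared with the rest by Dixon's ratio, and 7 held an array that stood apart. Chance alone gives about 1 such set in 20.

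With shCtBP2, 3 members had such an array. NPC1, the cholesterol exporter of the lysosomal membrane, had a log2 ratio of −0.0986 on replicate 3, while the other 4 arrays lay between 0.138 and 0.213. LAMP1 had −0.274 on replicate 4, while the other 4 arrays lay between 0.115 and 0.217. On replicate 4, 1 of its probes had no value, so that the gene's value there is the other probe alone. That probe by itself stood at −0.25 on replicate 5, where the first one was at 0.48. ASAH1, acid ceramidase, had 0.833 on replicate 2, while the other 4 arrays lay between 0.0774 and 0.274. On replicate 2 its dim probe was at 1.54 and its bright probe at 0.13. With shCtBP2, the dim probe was well above background in the treated channel on 2 of 5 arrays and in the control channel on 0. None of these 3 members passed the test with shCtBP2.

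With HIPP, GUSB had a log2 ratio of 0.103 on replicate 1, while the other 4 arrays lay between 0.498 and 0.648, and ARSA had 0.865 on replicate 4, while the other 4 arrays lay between 0.294 and 0.342. Both passed the test higher with HIPP, and both calls were kept without that array. With P4, SCARB2 had 0.826 on replicate 2, while the other 4 arrays lay between 0.0805 and 0.294, and NAGLU had −0.145 on replicate 4, while the other 4 arrays lay between −0.456 and −0.387. The 7 values came from 7 different arrays. Beyond the probe values given for LAMP1 and ASAH1, the cause was not tested.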

How the results depend on the processing

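Of the 37 calls on single members, 5 were kept under every alternative that gave a value (ARSB, CTSZ, HEXA, NEU1 and SCARB2, each with HIPP), and 24 when any 1 array was left out. With slide as a fixed block 22 of the 37 no longer passed, with the methods' t-test 28, with each treatment fitted alone 18, with normexp and loess 7 and with slide as a random block 0. The random block used slide correlations of −0.062, −0.061 and −0.064 for shCtBP2, HIPP and P4. Of all genes 15.8%, 53.2% and 36.6% then passed, against 12.8%, 48.3% and 31.1%. It was thus no stricter, and its 0 lost calls do not check the part of slide. The cause of the lost calls was not tested. The number of members that passed changed as follows, with the main values being 1 higher and 4 lower for shCtBP2, 13 and 6 for HIPP, 7 and 6 for P4, and 2, 0 and 0 differentially expressed.

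With normexp and loess, 2 members were lower and 0 differentially expressed with shCtBP2, 3 were lower with HIPP, and 7 differed between P4 and shCtBP2. Over all genes, 4.28% were then lower with shCtBP2 and 16.7% with HIPP. The share of all genes that differed between P4 and shCtBP2 in this fit is not given here, and was 10.6% in the main fit, where 4 members differed. With background-subtracted and median-centred signals, 2 were lower and 1 differentially expressed with shCtBP2, 7 higher and 11 lower with HIPP, and 3 higher with P4, where 8.44% of all genes were lower with shCtBP2, 18.5% higher and 27.7% lower with HIPP and 12.3% higher with P4. Where both channels had to be well above background, 2 were higher and 1 differentially expressed with shCtBP2 (11.5% of all genes higher). With the brightest probe of a gene, 2 were higher with shCtBP2 and 1 differentially expressed with P4, and with the probe nearest the 3′ end, chosen after seeing the data, 2 and 2, where 7.24% and 6.85% of all genes were higher with shCtBP2. With each treatment alone, 4 were higher with shCtBP2, 8 higher and 2 lower with HIPP, and 2 higher and 2 lower with P4, where all genes gave 9.29%, 19.4% and 19.6%, and 7.85% and 7.62%. With the methods' t-test, 2 were lower and 1 differentially expressed with shCtBP2, 4 higher and 1 lower with HIPP, and 1 higher and 0 lower with P4, where all genes gave 3.31% lower, 8.37% and 10.2%, and 1.91% and 2.74%. Adjusted over the genes past the fold threshold, the t-test left 1 differentially expressed with shCtBP2 (MITF) and 0 with HIPP and with P4. With a fold of 1.5 for all treatments, 6 were differentially expressed with HIPP and 3 with P4, against 32.5% and 17.5% of all genes.

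With slide as a fixed block, 3 were higher, 1 lower and 4 differentially expressed with shCtBP2, 3 lower with HIPP, and 0 higher and 1 lower with P4, whose median over the members was −0.19. Over all genes, 3.66% were then higher and 3.69% lower with shCtBP2, 19.7% lower with HIPP, and 4.5% higher and 5.32% lower with P4. Of 27574 genes tested with shCtBP2, 1981 were differentially expressed with the block, against 1796 without it. In this fit 0 members differed between P4 and shCtBP2, and the ratios with shCtBP2 were −0.28 for NPC2 and −0.12 for TFEB, both reversed and both without passing the test.

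The replicate numbers were not shown to pair the arrays. Deviations of arrays with the same number correlated between −0.028 and 0.47, with 13 of 15 pairs over 0.1, those with other numbers between −0.49 and 0.48, and 7 of 15 arrays correlated best with their own number. With the replicate number as a block, 12 members were higher and 7 lower with HIPP, the other counts were 1 higher and 4 lower for shCtBP2 and 7 and 6 for P4, and the calls over all genes went from 12.8%, 48.3% and 31.1% to 17.1%, 56% and 40.6% with shCtBP2, HIPP and P4. GLA with HIPP no longer passed (limma adjusted p = 0.056).

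With 1 array left out, 1 to 2 members were higher and 2 to 4 lower with shCtBP2 (2 lower without shCtBP2 replicate 2), 8 to 13 higher and 4 to 7 lower with HIPP (8 without HIPP replicate 5), and 5 to 9 higher and 4 to 7 lower with P4. Over all genes, 3.49% to 7.13% were then higher and 3.86% to 7.49% lower with shCtBP2. With HIPP these shares were 19.6% to 28.2% and 19.7% to 24.5%, and with P4 11.5% to 21.2% and 10.8% to 15.6%. The differentially expressed members numbered 2 for shCtBP2, 0 for HIPP and 0 to 1 for P4 (1 without P4 replicate 2). Between 3 and 7 members differed between HIPP and shCtBP2 (3 without shCtBP2 replicate 4 or 5 or HIPP replicate 3) and 2 to 4 between P4 and shCtBP2 (2 without shCtBP2 replicate 1, 2, 4 or 5 or P4 replicate 5). The shares of all genes for these differences are not given here. The member probe pairs that differed numbered 0 to 1 for shCtBP2, 7 to 10 for HIPP and 6 to 9 for P4. The medians ranged from 0.028 to 0.055 for shCtBP2, from −0.088 to 0.051 for HIPP and from −0.0036 to 0.063 for P4, and NPC2 with shCtBP2 ranged from −0.0069 (without shCtBP2 replicate 5, reversed) to 0.096. Dim members such as CTSF and CTSS were limited by signal over background.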
